A study of Mus musculus with 6 samples.

Results

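Palmitate is the main product of fatty acid synthesis and the lipid that palmitoyltransferases attach to proteins. The genes described here are the 29 genes of palmitate and cholesterol synthesis given by name for this account: 10 of fatty acid synthesis and 19 of sterol synthesis, each group with its SREBP regulator. All 29 were found, with 1 row each, among the 24167 genes of the deposited count table, and all 29 passed the filter on low counts that left 15567 genes for testing.

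Liver metastases were grown from 4T1, a triple-negative breast carcinoma line of the mouse. The cells carried a lentiviral hairpin, selected with puromycin, that was either scrambled (shSCR) or directed at Zdhhc17 (shZdhhc17). Zdhhc17 encodes a palmitoyltransferase, and the series addresses palmitoylation and the killing of cancer cells by neutrophils. Each BALB/c female of 6 to 8 weeks received 500000 cells by hydrodynamic tail vein injection, and metastases were dissected from the liver on day 10. There were 3 libraries of polyadenylated RNA per group. Host liver and immune cells in the dissected tissue carry no hairpin. In such bulk tissue, fewer cells of a type and less RNA per cell cannot be told apart. The labels do not state that each library is a separate animal, so p-values measure only the spread between these samples. The sources used here do not say how many hairpin sequences were used.

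Cells make palmitate from citrate. ATP citrate lyase (Acly) releases acetyl-CoA, acetyl-CoA carboxylases (Acaca, Acacb) turn it into malonyl-CoA, and fatty acid synthase (Fasn) builds the chain with NADPH, which malic enzyme (Me1) can supply. Elongases and desaturases then lengthen the chain or make it unsaturated. Cholesterol is made from acetyl-CoA through mevalonate, squalene and lanosterol. The SREBP transcription factors activate both pathways and are held in the endoplasmic reticulum by Insig proteins when sterols are plentiful. In liver, fatty acid synthesis follows feeding and insulin.

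The libraries held 15832837 to 19186615 counts. The tissue label was checked against markers. Hepatocyte markers, all 17 of 17 tested, summed to 3.04% to 7.62% of the library in shSCR and to 6.46% to 8.77% in shZdhhc17. Carcinoma epithelial markers (14 of 15 tested) summed to 0.312% to 0.427% and to 0.334% to 0.469%. Lcn2, the most abundant of them, had higher values in shZdhhc17, while 11 of the 14 had negative log2 fold changes (median -0.37), where 49.7% of all genes did. Without Lcn2 the sums were 0.339%, 0.233% and 0.316% in shSCR and 0.333%, 0.241% and 0.188% in shZdhhc17. Of the 8 adipocyte markers 5 were in the table, and Adipoq, which defines adipocytes, was at 0 in 4 libraries and at most 0.0659 CPM in the others. The lowest hepatocyte share was that of shSCR replicate 3, and replicates 2 and 3 of shZdhhc17 had the highest. Zdhhc17 itself (ENSMUSG00000035798.15) stood at 33.7, 32.4 and 34.2 CPM in shSCR replicates 1, 2 and 3 and at 25.9, 27.8 and 25.98 CPM in shZdhhc17 replicates 1, 2 and 3. CPM are counts scaled to a common normalized library size. The groups did not overlap. The difference was -0.33 ± 0.11 on the log2 scale (SE), and its adjusted p in edgeR's test across all genes was 0.383.

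No palmitate or cholesterol synthesis gene passed the test between shZdhhc17 and shSCR metastases. By edgeR's quasi-likelihood test, 0 of 29 had an adjusted p under 0.05, against 0% of all genes tested, and the smallest was 0.307. DESeq2, which called 1.22% of the genes it tested, and limma voom, which called none, called 0 of 29 as well. Without single libraries, DESeq2 called up to 3 members (Acly, Idi1 and Stard4, without shZdhhc17 replicate 1, where it called 2.36% of all genes). At an unadjusted p under 0.05, 4 members were higher in shZdhhc17 (Acly, Idi1, Hsd17b7 and Stard4), where 4.72% of all genes were, and 2 were lower (Scd1 and Me1), where 6.71% of all genes were. Groups did not overlap, with the higher values in shZdhhc17, for 4 members (Acly, Idi1, Hsd17b7 and Mvk), against 7.48% of all genes. They did not overlap, with the lower values in shZdhhc17, for Scd1 and Me1, against 9.62% of all genes. Without shZdhhc17 replicate 1, the library with the lowest level in 11 of 29 members, 9 members were higher and 2 lower at an unadjusted p under 0.05, where 6.96% and 6.99% of all genes were. Without shSCR replicate 1, 3 were higher and 1 was lower, beside 7.12% and 11.1% of all genes. Without shZdhhc17 replicate 3, 3 were higher and 1 was lower, beside 2.18% and 3.73%. Replicate 3 of shSCR stood apart from the other libraries on the first principal component (47.8% of the variance). Without it, 5 members were higher and 2 lower, beside 3.4% and 4.23% of all genes.

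**Figure D1:**
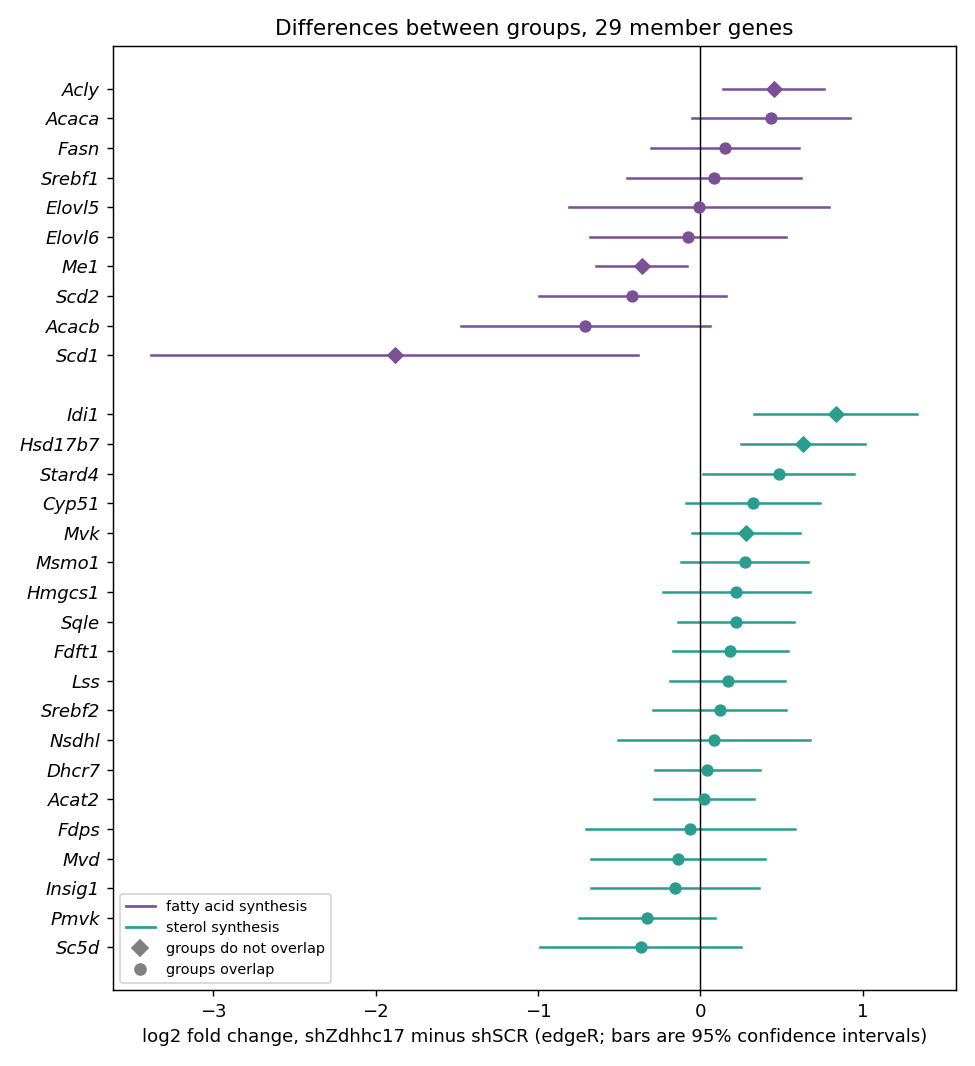
Log2 fold change of each member, shZdhhc17 minus shSCR, from edgeR with all 6 libraries; bars are 95% confidence intervals and diamonds mark genes whose groups do not overlap. Scd1 lies farthest from 0 at -1.88, with an interval from -3.38 to -0.38, and Idi1 is the highest at 0.83.

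The fatty acid genes did not share a direction. Of the 10, 4 were above and 6 below 0 on the log2 fold change scale, where 50.3% and 49.7% of all genes were. Their median was -0.041, beside 0.0017 for all genes tested. Of the 19 sterol genes, 14 were above 0 and 5 below, and their median was 0.17. The difference between the 2 groups of genes was not tested, and the fatty acid median was 0.013 with limma voom, 0.014 with the replicate block and 0.0062 with the hepatocyte covariate. With library totals alone as the scaling, which moved the median of all genes to -0.13, 10 of 19 sterol genes and 3 of 10 fatty acid genes were positive, with medians of 0.031 and -0.17. With the carcinoma marker level, Lcn2 included, as a covariate, the same counts were 10 and 3, with medians of 0.012 and -0.27. The sterol median was 0.098 without shZdhhc17 replicate 2 and 0.31 without shZdhhc17 replicate 1.

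Per length, the desaturase gene Scd1 and the elongase gene Elovl5 were the most abundant members. Mean CPM over the 6 libraries, per kilobase of annotated exons, was 182 for Scd1, 90.5 for Elovl5, 59.2 for Hmgcs1 and 48.3 for Scd2. Msmo1, Acly and Srebf1 followed with 42.5, 38.2 and 37.5. Fasn stood at 21.6 CPM per kilobase. At the low end, Acacb had 1.79, Idi1 3.44, Acaca 4.71 and Fdps 4.82. Scd1 was above Scd2 per kilobase on average in both groups, at 286 against 55.3 in shSCR and at 77.5 against 41.4 in shZdhhc17.

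**Figure D2:**
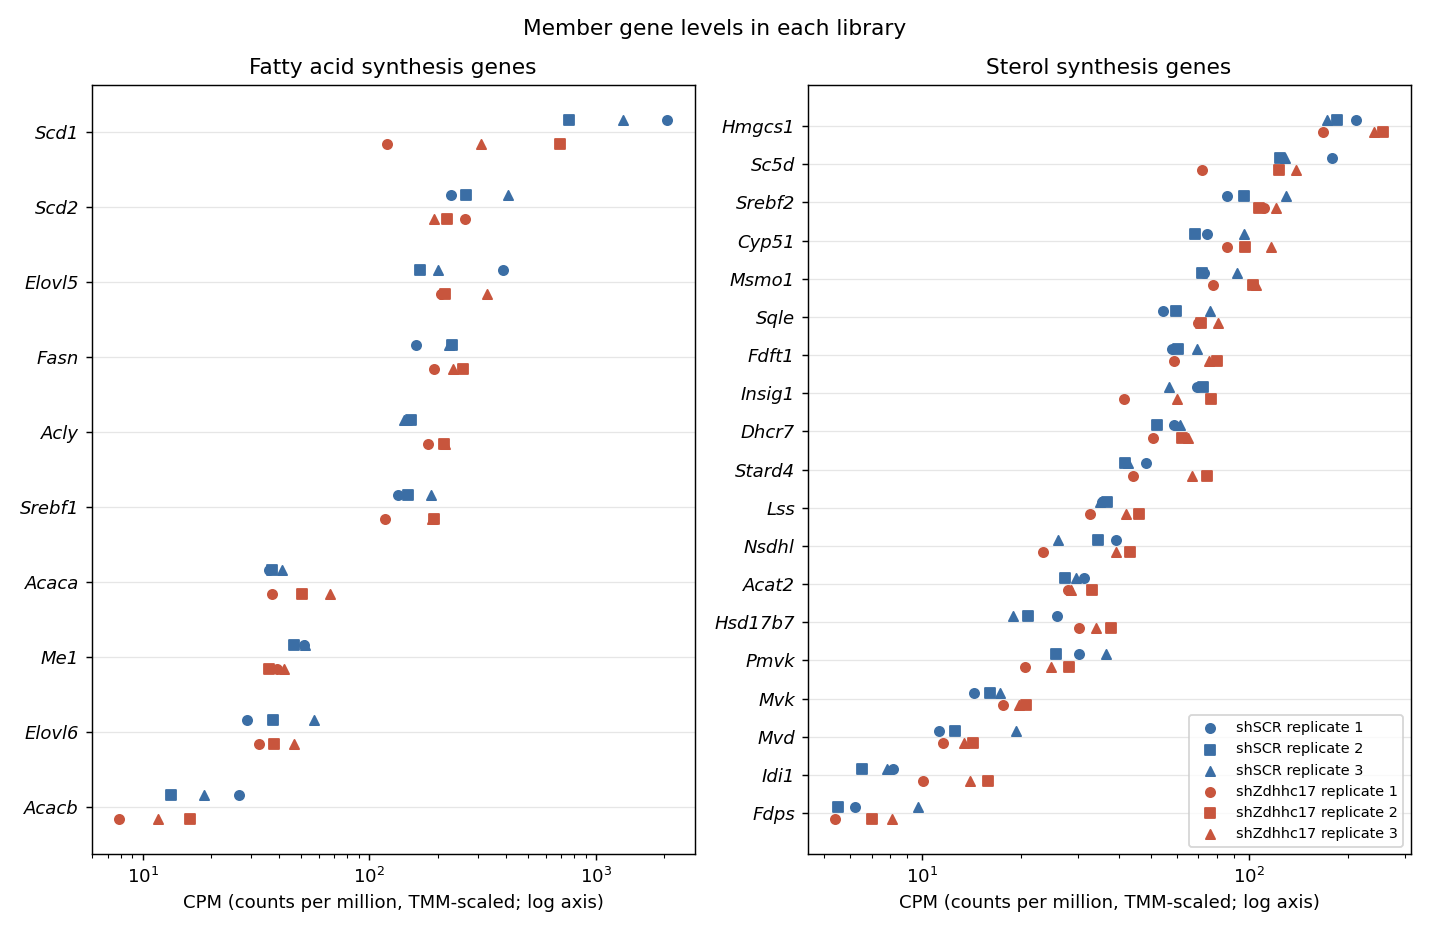
CPM of every member in each library on a log axis, with fatty acid genes on the left and sterol genes on the right; colours are groups and marker shapes are replicate numbers. Scd1 covers the widest range, from 120.0 to 2060.1 CPM, while the values of most sterol genes interleave between the groups.

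Scd1, which encodes the stearoyl-CoA desaturase that makes oleate and palmitoleate, had the largest difference of the 29. It stood at 2060.1, 764 and 1319 CPM in shSCR replicates 1, 2 and 3 and at 120.0, 693 and 311 CPM in shZdhhc17 replicates 1, 2 and 3. Each silenced library was below each control library, but shZdhhc17 replicate 2 and shSCR replicate 2 lay close together. The means were 1381 ± 651 and 375 ± 292 CPM (SD, n = 3 each), a level 3.69-fold lower in shZdhhc17. The log2 fold change was -1.88 ± 0.64 (SE; edgeR adjusted p = 0.382). Without single libraries it lay between -2.68 and -1.45. A hepatocyte covariate in the fit gave -2.33, and the carcinoma marker level as a covariate, Lcn2 included, gave -2.70. The 2 extreme libraries, shSCR replicate 1 and shZdhhc17 replicate 1, differed 17.2-fold in Scd1. They had 7.62% and 6.46% of counts in hepatocyte markers and, Lcn2 aside, 0.339% and 0.333% in carcinoma markers. They also stood apart from the rest in other measures. In shSCR replicate 1 the ribosomal RNA gene Rn18s-rs5 took 2.54% of counts, while elsewhere it took 0.194% to 0.412%. On the second principal component (21.2% of the variance), shZdhhc17 replicate 1 lay at -36.9 and the others between -7.58 and 18.02. The part of these differences in the Scd1 values was not tested beyond the fits without each library: the log2 fold change was -1.47 without shSCR replicate 1 and -1.45 without shZdhhc17 replicate 1.

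Scd2, the related desaturase gene typical of tissues other than liver, varied less. Its levels were 230, 266 and 409 CPM in shSCR and 265, 220.1 and 192 CPM in shZdhhc17. The groups overlapped, shSCR replicate 3 stood highest, and the log2 fold change was -0.42 ± 0.25 (SE). Of the counts of both genes together, Scd1 took 89.96%, 74.2% and 76.3% in shSCR and 31.2%, 75.9% and 61.8% in shZdhhc17. That share does not depend on the scaling of the libraries. The means were 80.2% ± 8.56 and 56.3% ± 22.9 (SD, n = 3 each), with p = 0.2 in an exact two-sided permutation test and 0.2 adjusted over 2 shares tested; 3 against 3 can give no p below 0.1. Without shZdhhc17 replicate 1, the difference of -23.9 percentage points became -11.3. Transcripts of Scd2 and Scd1 match at 95.5% over 623 bases, so how some of their reads were counted is uncertain.

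**Figure D3:**
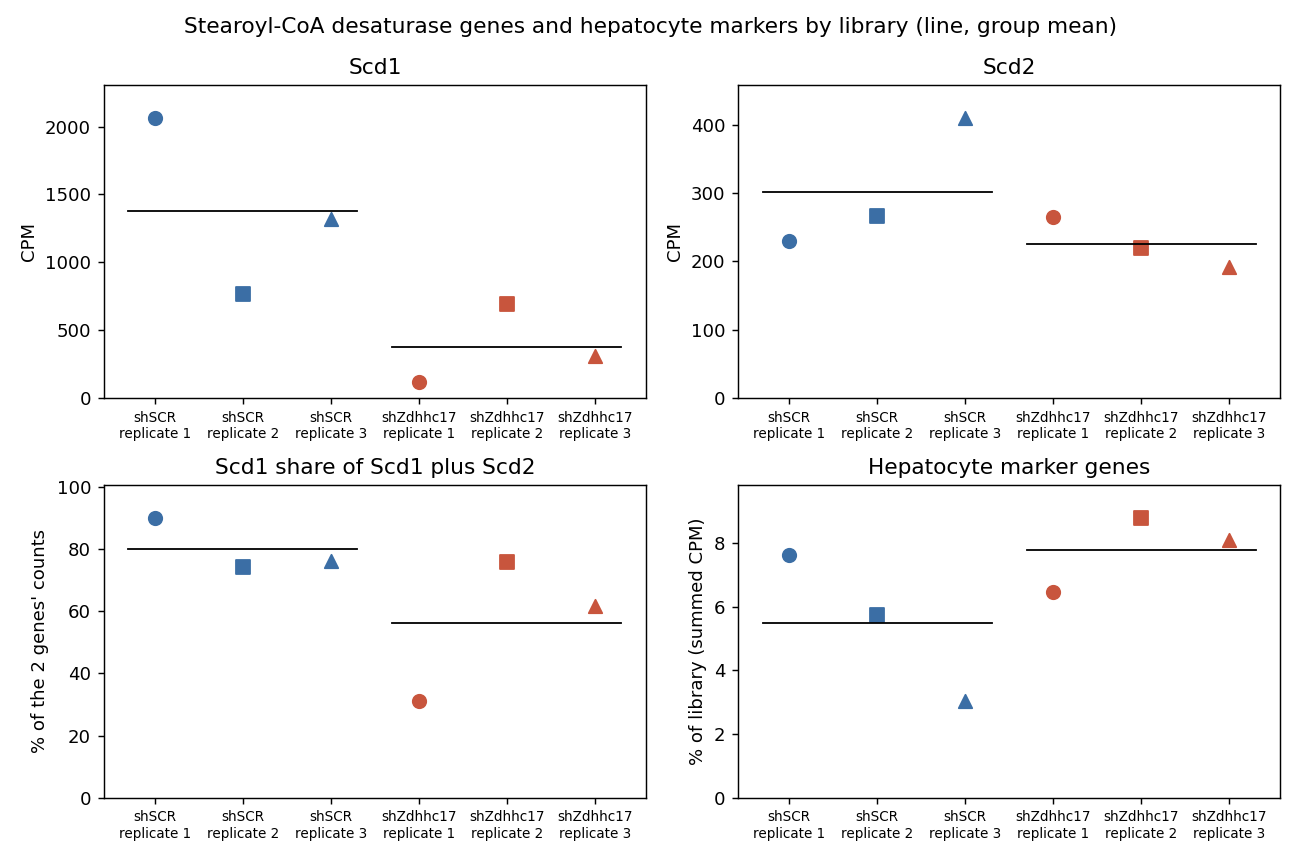
Scd1 and Scd2 in CPM, the Scd1 share of their joint counts and the summed hepatocyte markers as a percentage of the library, by library; lines are group means. Scd1 is lowest in shZdhhc17 replicate 1 and highest in shSCR replicate 1, while the hepatocyte share is lowest in shSCR replicate 3 at 3.04%.

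Acly, which supplies the carbon for palmitate, stood at 152, 152 and 142 CPM in shSCR and at 182, 213 and 215 CPM in shZdhhc17. The groups did not overlap, and the control values lay close together. Its log2 fold change was 0.45 ± 0.13 (SE; edgeR adjusted p = 0.348), a mean 1.37-fold higher. Acaca, the carboxylase gene of the synthetic pathway, stood at 36.0, 37.3 and 41.1 CPM in shSCR and at 37.3, 50.4 and 66.9 CPM in shZdhhc17. Replicate 1 of shZdhhc17 lay among the controls, and the log2 fold change was 0.43 ± 0.21 (SE; edgeR adjusted p = 0.472).

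Acacb, whose enzyme makes malonyl-CoA at mitochondria, where it restrains fatty acid oxidation, had lower values instead. Its levels were 26.6, 13.3 and 18.6 CPM in shSCR and 7.86, 16.2 and 11.7 CPM in shZdhhc17, with overlapping groups. The log2 fold change was -0.71 ± 0.33 (SE; edgeR adjusted p = 0.462). Acaca took 57.5%, 73.7% and 68.8% of the joint carboxylase counts in shSCR and 82.6%, 75.6% and 85.1% in shZdhhc17. These shares did not overlap. Their means were 66.7% ± 8.30 and 81.1% ± 4.89 (SD, n = 3 each), with p = 0.1 in an exact two-sided permutation test, the smallest that 3 against 3 allows, and 0.2 adjusted over 2 shares.

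Fasn encodes the synthase itself. It stood at 161, 231 and 225 CPM in shSCR and at 193, 259 and 233 CPM in shZdhhc17, with overlap. Its log2 fold change was 0.15 ± 0.20 (SE), with a 95% interval from -0.30 to 0.61. Me1 stood at 51.6, 46.4 and 52.1 CPM in shSCR and at 38.9, 36.0 and 41.9 CPM in shZdhhc17. All silenced libraries lay below all controls, and the log2 fold change was -0.36 ± 0.12 (SE; edgeR adjusted p = 0.378). Elovl6, the elongase of palmitate to stearate, stood at 28.8, 37.5 and 57.0 CPM in shSCR and at 32.6, 37.9 and 46.5 CPM in shZdhhc17, with full overlap and an interval from -0.68 to 0.53. Elovl5, an elongase of polyunsaturated fatty acids, ranged from 168 to 388 CPM with a log2 fold change of -0.0059 ± 0.34 (SE).

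The regulator genes had overlapping groups and intervals that hold 0. Srebf1, which encodes the SREBP-1 factors that drive fatty acid genes, stood at 134, 148 and 188 CPM in shSCR and at 117, 193 and 188 CPM in shZdhhc17. The lowest value was that of shZdhhc17 replicate 1, and the log2 fold change of 0.084 had a 95% interval from -0.45 to 0.62. Srebf2, which encodes SREBP-2, the main activator of sterol genes, stood at 85.4, 96.2 and 130.1 CPM in shSCR and at 111, 107 and 121 CPM in shZdhhc17. Its groups overlapped, and the interval ran from -0.29 to 0.53. Insig1, both an inhibitor of SREBP processing and an SREBP target, stood at 69.1, 72.3 and 56.8 CPM in shSCR and at 41.6, 76.3 and 60.2 CPM in shZdhhc17. Again shZdhhc17 replicate 1 was lowest, and the interval ran from -0.67 to 0.36. RNA levels do not report on the cleavage that activates SREBP proteins.

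In the mevalonate steps, Idi1 had the largest difference of the sterol genes. It encodes isopentenyl-diphosphate isomerase. It stood at 8.12, 6.54 and 7.81 CPM in shSCR and at 10.1, 15.9 and 14.0 CPM in shZdhhc17. The groups did not overlap, and the log2 fold change was 0.83 ± 0.22 (SE; edgeR adjusted p = 0.307), a mean 1.78-fold higher. Idi1 is a low gene, with 125 to 267 counts per library, and annotated copies match it. Gm13502 matches at 100% over 684 bases and held 4 counts in all, and Gm35570 matches at 97.7% over 681 bases and held 50, against 1054 for Idi1. How reads that match more than 1 of them were counted, or whether they were left out, is uncertain. Mvk, mevalonate kinase, stood at 14.4, 16.2 and 17.2 CPM in shSCR and at 17.6, 20.8 and 19.7 CPM in shZdhhc17. It also did not overlap, with a smaller difference of 0.28 ± 0.14 on the log2 scale (SE; adjusted p = 0.489 by edgeR).

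Hmgcs1, the synthase that opens the pathway, stood at 213, 185 and 173 CPM in shSCR and at 169, 257 and 240.2 CPM in shZdhhc17. Replicate 1 of shZdhhc17 was the lowest of all 6 and the other silenced libraries the highest, so the groups overlapped (log2 fold change 0.22 ± 0.19, SE). Other mevalonate genes had values on the opposite side: Pmvk, phosphomevalonate kinase, had -0.33 ± 0.18 (SE) and Mvd, mevalonate diphosphate decarboxylase, -0.14 ± 0.23. Fdps, farnesyl diphosphate synthase, had -0.061 ± 0.28 (SE) at 5.41 to 9.71 CPM. Several annotated copies match Fdps, 1 of them at 98.9% over 1062 bases, so its low count is uncertain. Acat2, which condenses acetyl-CoA, had 0.023 ± 0.13 (SE) and matches Acat3 at 97.7% over 1477 bases and Tcp1 at 98.7% over 445 bases.

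Among the enzymes from squalene to cholesterol, Hsd17b7, a sterol 3-ketoreductase that also acts on estrone, stood apart. It stood at 25.8, 21.0 and 18.9 CPM in shSCR and at 30.1, 37.9 and 34.03 CPM in shZdhhc17. The groups did not overlap, and the log2 fold change was 0.63 ± 0.16 (SE; edgeR adjusted p = 0.307), a mean 1.55-fold higher. Sqle, squalene epoxidase, an early oxygen-dependent step, stood at 54.5, 59.8 and 76.0 CPM in shSCR and at 69.9, 71.4 and 80.2 CPM in shZdhhc17. Only shSCR replicate 3 reached the silenced values, and the log2 fold change was 0.22 ± 0.15 (SE). Fdft1, squalene synthase, and Lss, which closes the rings of lanosterol, had log2 fold changes of 0.19 ± 0.15 and 0.17 ± 0.15 (SE). Cyp51 and Msmo1, which take methyl groups off lanosterol and its products, had 0.33 ± 0.18 and 0.27 ± 0.17 (SE). The groups of all 4 overlapped. Fdft1 shares exon sequence on the opposite strand with the abundant Ctsb, Cyp51 with Akap9 and Srebf1 with Rai1. Whether counting used strand is not said in the sources used here, so how reads of such a pair were counted is uncertain.

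The remaining sterol genes showed no common direction. Nsdhl, a sterol dehydrogenase, and Dhcr7, which makes cholesterol from its dehydro precursor, had log2 fold changes of 0.084 ± 0.25 and 0.044 ± 0.14 (SE). Sc5d, the sterol desaturase, ranged from 124 to 179 CPM in shSCR and from 71.8 to 139 CPM in shZdhhc17, a log2 fold change of -0.37 ± 0.27 (SE). Its lowest value, too, was that of shZdhhc17 replicate 1. Stard4, a carrier of cholesterol between membranes, stood at 48.5, 41.8 and 42.5 CPM in shSCR and at 44.1, 74.5 and 66.9 CPM in shZdhhc17. Replicate 1 of shZdhhc17 lay among the controls and the other silenced libraries above them. The log2 fold change was 0.48 ± 0.20 (SE; edgeR adjusted p = 0.422).

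Within the silenced group the sterol genes split by library. Of the 19, 10 were highest of all 6 libraries in shZdhhc17 replicate 2, where 16.8% of all genes were, and 4 in shZdhhc17 replicate 3. None was highest in shZdhhc17 replicate 1, where 19.0% of all genes were, and 8 were lowest there, where 16.6% of all genes were. In shSCR replicates 1 and 2, 5 each were lowest, beside 14.6% and 16.1% of all genes. The mean log2(CPM + 1) of the sterol genes was 5.38, 5.29 and 5.46 in shSCR and 5.25, 5.67 and 5.63 in shZdhhc17. Summed hepatocyte markers were 7.62%, 5.75% and 3.04% of the library in shSCR and 6.46%, 8.77% and 8.10% in shZdhhc17. Proliferation markers summed to 0.0867% to 0.124% in shSCR and 0.101% to 0.136% in shZdhhc17, and neutrophil markers to 0.0238% to 0.0425% and 0.0534% to 0.0921%. Of the tested markers of each list, 8 of 11 neutrophil genes had higher values in shZdhhc17 without overlap (S100a9 the most abundant), against 7.48% of all genes. All 7 of 7 T cell genes and 6 of 6 dendritic genes had negative log2 fold changes (Lck and Itgax the most abundant). So did 11 of 14 carcinoma genes and 49.7% of all genes. Lower values in shZdhhc17 without overlap were seen for 0 T cell, 2 dendritic and 1 carcinoma genes, against 9.62% of all genes. T cell markers summed to 10.8 CPM in shSCR replicate 1, within the 8.93 to 16.8 CPM of shZdhhc17. Dendritic markers summed to 43.9 CPM there, beside 26.4 to 42.6 CPM in shZdhhc17. The mean log2(CPM + 1) of the carcinoma genes was 6.96, 6.63 and 6.76 in shSCR and 6.92, 6.31 and 6.27 in shZdhhc17. It was lowest in the 2 libraries where the sterol mean was highest, also without Lcn2 (6.00 and 5.94). By summed share without Lcn2, however, shSCR replicate 2 (0.233%) lay below shZdhhc17 replicate 2 (0.241%). The mean log2(CPM + 1) of the hepatocyte genes was 11.37, 10.98 and 9.99 in shSCR and 10.88, 11.52 and 11.19 in shZdhhc17. The part of these cell mixtures in the sterol values was not tested, apart from the fits with a marker covariate.

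**Figure D4:**
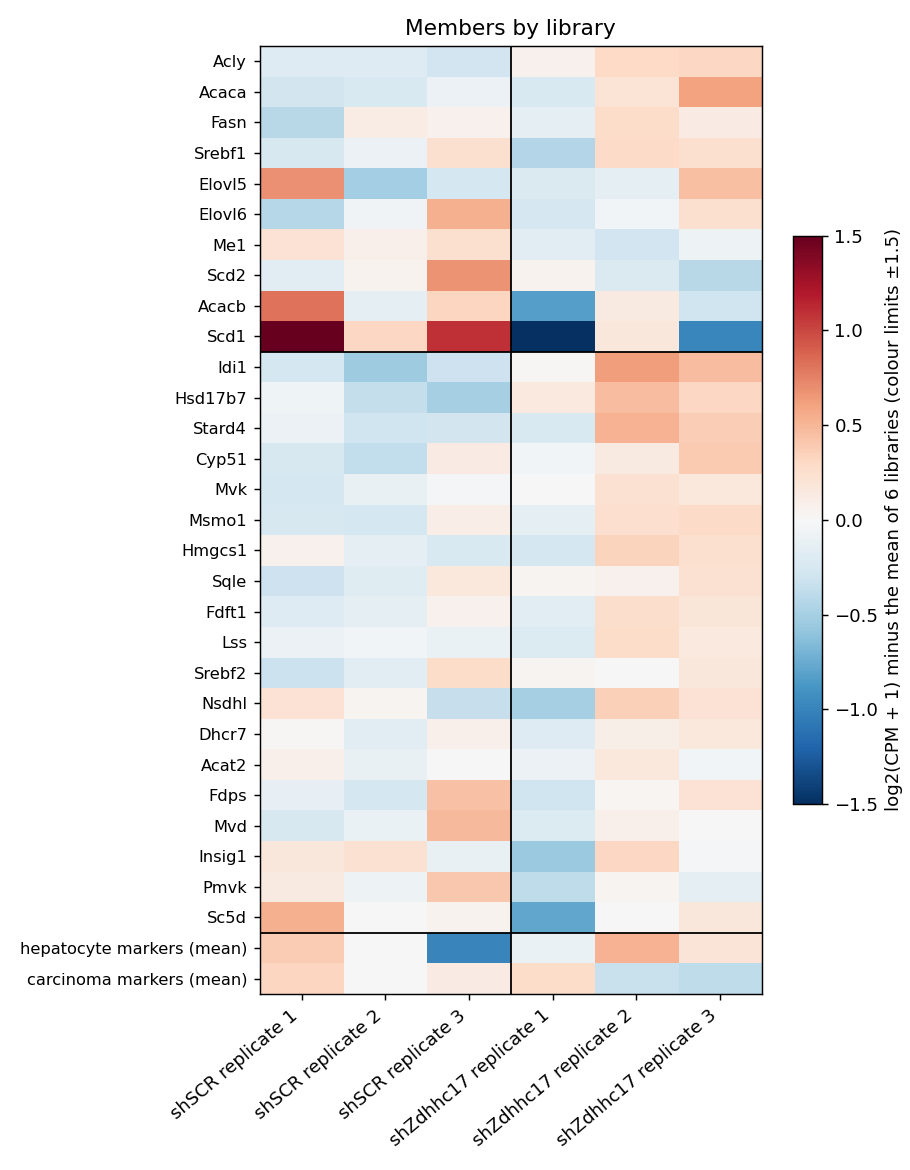
Log2(CPM + 1) of each member minus its mean over the 6 libraries, with the mean hepatocyte and carcinoma marker levels in the bottom rows; red is above and blue below the mean, and colours end at 1.5. Most sterol genes are above their mean in shZdhhc17 replicates 2 and 3 and none is highest in replicate 1, while Scd1 passes the colour limit in shSCR replicate 1 and shZdhhc17 replicate 1.

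Promoter sequence was read for the members as background to these shared patterns. RefSeq windows of GRCm38.p6, from 250 bases before to 50 after a start, matched 23 of 29 members by symbol (15 sterol and 8 fatty acid genes). The counts were made on GRCm39. The sterol regulatory element, searched as TCACNCCAC on both strands, was in 1 of 18 sterol windows, that of Hmgcs1, in 0 of 11 fatty acid windows and in 1.24% of all 32851 windows. Variants of this pattern were not searched, so a count of 0 does not mean that these genes lack such an element. Some windows also lie inside their gene. The 150 bases read for Acaca begin at 84195288 and its gene at 84129635, and those for Acacb at 114165368 and its gene at 114146321. For Fasn, on the minus strand, the bases shown run from 120824548 to 120824697, inside its gene, which reaches 120825166. The bases shown for Hsd17b7 and Mvk reach slightly into their genes, which end at 169969242 (minus strand) and begin at 114444264 (plus strand). CCAAT, the motif of NF-Y, a factor known to act beside SREBP, was in 14 of 18 sterol windows (77.8%), 7 of 11 fatty acid windows (63.6%) and 37.4% of all windows. GGGCGG, the Sp1 motif, was in 83.3%, 36.4% and 35.7%. The E-box TCACGTGA was in 0 member windows and 0.974% of all. A match is a description of letters, not of binding. The 150 bases before the start are shown for the 3 sterol genes whose groups did not overlap, for Hmgcs1 with its element, and for Fasn, in lower case with CCAAT (or its reverse complement ATTGG) and the element in capitals.
Idi1 (chr13:8885456-8885605, plus strand): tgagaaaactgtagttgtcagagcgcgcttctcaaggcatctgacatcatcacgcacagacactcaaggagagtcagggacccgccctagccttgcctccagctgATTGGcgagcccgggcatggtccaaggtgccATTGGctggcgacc
Hsd17b7 (chr1:169969206-169969355, minus strand): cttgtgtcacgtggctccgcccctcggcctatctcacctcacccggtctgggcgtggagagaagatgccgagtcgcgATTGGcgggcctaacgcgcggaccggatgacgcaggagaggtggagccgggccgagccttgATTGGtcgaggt
Mvk (chr5:114444119-114444268, plus strand): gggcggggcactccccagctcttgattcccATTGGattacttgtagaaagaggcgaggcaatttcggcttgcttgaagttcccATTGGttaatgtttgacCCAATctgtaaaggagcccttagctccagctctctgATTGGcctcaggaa
Hmgcs1 (chr13:119690201-119690350, plus strand): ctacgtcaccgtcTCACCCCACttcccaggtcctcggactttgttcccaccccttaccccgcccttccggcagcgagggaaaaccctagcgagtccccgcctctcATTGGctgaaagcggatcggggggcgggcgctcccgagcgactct
Fasn (chr11:120824548-120824697, minus strand): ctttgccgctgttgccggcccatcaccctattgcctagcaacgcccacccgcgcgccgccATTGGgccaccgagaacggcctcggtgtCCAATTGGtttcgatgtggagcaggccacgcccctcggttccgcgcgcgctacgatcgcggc
Idi1, Hsd17b7 and Mvk, which had higher values in each silenced library, all carry CCAAT, and so do Hmgcs1 and Fasn, whose groups overlapped. Of the 15 sterol genes with a window, 14 carry it. Among these 14 are also Pmvk, Sc5d, Mvd and Insig1, which had negative log2 fold changes. Carrying CCAAT therefore does not set Idi1, Hsd17b7 and Mvk apart.

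Other genes of these pathways, from a list of 59 fixed with earlier results known, gave a like picture. Of 55 tested, 0 passed the edgeR test (smallest adjusted p = 0.362). At an unadjusted p under 0.05, 6 were higher and 2 lower, where 4.72% and 6.71% of all genes were. Their median log2 fold change was 0.078. Acat1, a mitochondrial thiolase, had 0.93 ± 0.29 (SE), Soat2, which esterifies cholesterol in hepatocytes, 0.70 ± 0.23, and Erlin1, a membrane protein that restrains SREBP, 0.45 ± 0.15. Hacd3, of fatty acid elongation, had 0.65 ± 0.23 (SE) and Gpam, of triglyceride synthesis, 0.54 ± 0.20. On the other side were Nr1h2, the LXR-beta receptor, with -0.35 ± 0.12 (SE) and Npc2, the lysosomal cholesterol carrier, with -0.62 ± 0.24. Groups did not overlap, with the higher values in shZdhhc17, for 5 of the 55, Acat1, Soat2 and Erlin1 among them, against 7.48% of all genes. With the lower values in shZdhhc17 they did not overlap for 3, Nr1h2 and Npc2 among them, against 9.62% of all genes.

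By the roles fixed in that list, SREBP processing and nuclear receptor genes had 6 positive of 9 (median 0.19) and acetyl-CoA supply 3 of 5 (0.13). Further fatty acid enzymes had 12 positive of 20 (0.094), further sterol enzymes 3 of 8 (-0.095) and sterol export, transport and esterification 6 of 13 (-0.084).

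The authors' deposited table of DESeq2 results likewise listed 0 of 29 members with a q under 0.05, where 0.844% of its genes were. In the authors' deposited table the smallest member values were a q of 0.0614 for Idi1 and 0.0991 for Hsd17b7, and Scd1 had a log2 fold change of -1.86 with a q of 0.268. Of 28 gene sets in the authors' deposited table of enrichment results that hold at least 5 members, 1 had a q under 0.05. That set, the Reactome metabolism of lipids with 693 genes, had a normalized enrichment score of 1.68 (q = 0.000298) in the authors' deposited table. It holds 28 members, and 5 of the 28 (Idi1, Hsd17b7, Acly, Stard4 and Acaca) are among its leading genes. Of all 693 genes of the set, 135 are leading genes, so the share was not higher among the members. The Reactome cholesterol biosynthesis set scored 1.26 (q = 0.585) and the fatty acyl-CoA biosynthesis set -0.76 (q = 1) in the authors' deposited table.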

How the data were processed

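Polyadenylated RNA was sequenced from a stranded dUTP kit, per the labels' protocols. Per the submitters' processing notes, which list tools but not their order, STAR 2.6.1, HTSeq, FastQC 0.11.8 and DESeq2 1.34.0 were used with GRCm39. No source used here gives the strand setting. The authors deposited raw counts per gene as whole numbers. They also deposited DESeq2 log2 fold changes with p-values and q-values, and a gene set table with enrichment scores and q-values, per the file headers. The deposited column description names another contrast, while the tables name this one.

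All 6 columns were matched to samples, and groups come from the titles. The test was edgeR 4.0.16 (glmQLFit, robust, and glmQLFTest, two-sided) with TMM scaling and filterByExpr, fitted over all 15567 genes, with Benjamini-Hochberg adjustment and a threshold of 0.05. It was tested on simulated data. SEs come from the log2 fold change and F statistic; intervals are 95%. CPM use TMM library sizes. Marker levels are means of log2(CPM + 1) or summed CPM. Exon lengths and transcript copies (blastn matches of at least 90% over 200 bases) are from GENCODE M21 of GRCm38, used for no coordinates; 23174 identifiers had a length. Counts of 86 to 37796 per member and library mean that the spread between libraries, not counting noise alone, sets the errors of most members.

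Alternatives were DESeq2 1.42.0 and its size factors, library totals, other filters, limma 3.58.1 voom, no robust estimation, a replicate block, hepatocyte or carcinoma level as covariate, and leaving out each library. DESeq2 without each library was added after seeing the data. R was 4.3.3. Members, lists and tests were chosen with earlier results of these data known. The rule for named genes gave every library's value for the regulators and main enzymes and for members whose groups did not overlap or whose unadjusted p was under 0.05, the others by range or fold change, and the 8 pathway genes with the smallest p, of which 1 is not reported here.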

Additional observations from a re-analysis of the deposited data

How the results depend on the processing

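In the 16 alternatives set out for the comparison, no member passed the threshold, and Acly, Acaca, Acacb, Scd1, Scd2, Me1, Idi1, Hsd17b7, Mvk, Hmgcs1, Sqle and Stard4 kept their direction. Elovl5 changed sign in 8 of the 16, Srebf1, Nsdhl and Acat2 in 5 each and Dhcr7 in 4. The number of genes called among all tested was 0 by edgeR (735 higher and 1045 lower at an unadjusted p under 0.05) and 0 by limma voom. It was 204 by DESeq2, 3 without the filter on low counts and 2 with the hepatocyte level as a covariate; the cause was not tested. Leaving out single libraries gave 0 to 1 genes by edgeR, and by DESeq2 691, 115 and 101 (without shSCR replicates 1, 2 and 3) and 371, 88 and 24 (without shZdhhc17 replicates 1, 2 and 3). Members called by DESeq2 without single libraries ran from 0 to 3. Without shSCR replicate 1 they were Idi1 and Hsd17b7 (2 members, beside 691 genes in all). Without shZdhhc17 replicate 1 they were Acly, Idi1 and Stard4 (3 members, beside 2.36% of all genes). Without shZdhhc17 replicate 2, Scd1 alone was called (1 member, beside 88 genes in all). For the fits without shSCR replicate 1 and without shZdhhc17 replicate 2, the share of all genes is not given here. The median of the fatty acid genes ran from -0.23 to 0.089 and that of the sterol genes from 0.098 to 0.31 without single libraries. The Scd1 share differed by -33.7 to -11.3 percentage points and the Acaca share by 9.86 to 17.9. Deviations of same-numbered libraries from their group means correlated at -0.059, 0.32 and -0.046. Of the shSCR libraries, only replicate 2 correlated best with its own number. With 3 libraries per group, these values cannot decide whether a replicate number marks something shared. With the replicate block, edgeR called 0 genes and 0 members, with medians of 0.014 and 0.15 for the fatty acid and sterol genes. Low members such as Fdps and Idi1 are also limited by depth.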

Other observations

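The log2 fold change of Scd1 was set beside those of other abundant genes. Of 1884 genes with a mean of at least 100 CPM in shSCR, 8, Scd1 among them, had a log2 fold change as low as or lower than its -1.88; this count was chosen after the value was seen. On the adipocyte list, Cidec, which encodes a lipid droplet protein that fatty liver also expresses, stood at 0.654, 0.784 and 0.558 CPM in shSCR and at 8.49, 1.55 and 4.22 CPM in shZdhhc17, so the groups did not overlap. Its order within the silenced libraries was the reverse of that of Scd1, highest in replicate 1 and lowest in replicate 2. The log2 fold change of Cidec was 2.82, chosen after its value was seen, and its edgeR adjusted p was 0.307, while its DESeq2 adjusted p was 0.000939. Fabp4, the most abundant of the adipocyte list, stood at 58.0, 64.4 and 59.4 CPM in shSCR and at 51.4, 34.9 and 38.2 CPM in shZdhhc17.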
